A study of Homo sapiens with 24 samples.

Results

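The mRNAs described here encode the nuclear-encoded proteins of the mitochondrial respiratory chain and ATP synthase, with their assembly factors and the CHCHD proteins of the intermembrane space, and the proteins of the mitochondrial ribosome. They were taken by gene symbol from a list of peaks at which the Argonaute protein Ago2 was crosslinked to RNA (CLIP). Of 24041 peaks in 6088 genes, 200 peaks in 100 genes carried such a symbol. Of these, 118 peaks lay in 60 respiratory chain genes and 82 peaks in 40 mitochondrial ribosomal protein genes. The study treated 293S cells, an adherent human cell line of embryonic kidney origin, with 1 mM sodium arsenite for 30 min and compared them with untreated 293S cells. Arsenite is a thiol-reactive poison that stops translation initiation and brings stress granules about. Libraries of 3 kinds (Ago2 CLIP of mRNA, CLIP of an LO band that carries the Ago2-bound miRNAs, and RNA-seq) were each made from arsenite-treated and from untreated cells in 4 biological replicates, 24 samples in 6 groups. RNA-seq values were not analysed here, and both treatments use the same line with no engineered allele named in the labels.

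Oxidative phosphorylation moves electrons from NADH and succinate through complexes I to IV to oxygen, and the resulting proton gradient drives ATP synthase. Most subunits are made from nuclear genes on cytosolic ribosomes and imported, often from mRNAs located near the outer membrane, while a small core is encoded by mitochondrial DNA and made by the mitochondrial ribosome, all of whose proteins are nuclear-encoded too. Ago2 carries miRNAs, whose seed (bases 2 to 8) pairs with target mRNAs, and the usual outcome is less translation and faster decay of the target.

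The deposited table holds, for each peak, a log average of normalized Ago2 CLIP abundance over both treatments and a log ratio, arsenite over untreated. All log ratios and log averages given for peaks are the authors' own values. Each combines all replicates, so no SD, test or depth can be given for any peak, and differences between groups of genes are descriptions. The log base and the normalizer are not stated, so a log ratio is not converted to a fold, and whether it is relative to RNA abundance is unknown. Where 0 lies was set by the unstated normalization, and log ratios over the whole table were mostly positive. Counts for these mRNAs are therefore set beside those of all genes or all peaks in the table. Unless stated otherwise, a gene's value is the log ratio at its peak with the highest log average. Of the markers looked up, NEFL and VIM, genes of a neuronal and a mesenchymal filament, had 6 and 8 peaks, and no peak was listed for NEFM, KRT8, KRT18 or for PTPRC, HBB, ALB and COL1A1, markers of other cell types.

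The miRNAs whose seeds were matched most often in these mRNAs are shown first, because the matches are returned to below. In each mature sequence, from RefSeq (GRCh38.p14), the seed is in capitals. The first 7 belong to the families with at least 4 matched peaks, and miR-92a-3p and miR-181a-5p belong to families matched at the most 3' peaks of CHCHD10 and MRPL12, which are described along the transcript.
miR-16-5p: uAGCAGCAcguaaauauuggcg
miR-103a-3p: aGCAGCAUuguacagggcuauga
miR-29b-3p: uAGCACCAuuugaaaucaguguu
miR-17-5p: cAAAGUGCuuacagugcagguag
miR-301a-3p: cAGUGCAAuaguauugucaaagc
miR-19b-3p: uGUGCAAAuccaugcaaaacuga
miR-27a-3p: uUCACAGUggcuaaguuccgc
miR-92a-3p: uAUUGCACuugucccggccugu
miR-181a-5p: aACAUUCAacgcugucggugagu
Bases 3 to 8 of miR-16-5p equal bases 2 to 7 of miR-103a-3p, and bases 3 to 8 of miR-301a-3p equal bases 2 to 7 of miR-19b-3p, so 1 stretch of target can match both families of such a pair.

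Ago2 signal on respiratory chain mRNAs was mostly higher with arsenite than without, as it was for most genes in the table. In 54 of the 60 genes the log ratio was above 0, where 79.9% of all 6088 genes were, and in 35 it was above 1, where 53.1% of all genes were. The median was 1.39, beside 1.10 over all genes, and the quartiles lay at 0.48 and 2.44. The other 6 genes were below 0, where 20.1% of all genes were, and COX11 alone lay below -1, where 4.52% of all genes did. The values ran from -1.07 in COX11 to 4.36 in CHCHD10, so the members differed widely among themselves. Over the 118 peaks, 105 were above 0, where 70.3% of all peaks were, and 73 above 1, where 39.1% of all peaks were. The median was 1.37 beside 0.65 for all peaks, and 3 peaks lay below -1, where 7.43% of all peaks did.

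**Figure D1:**
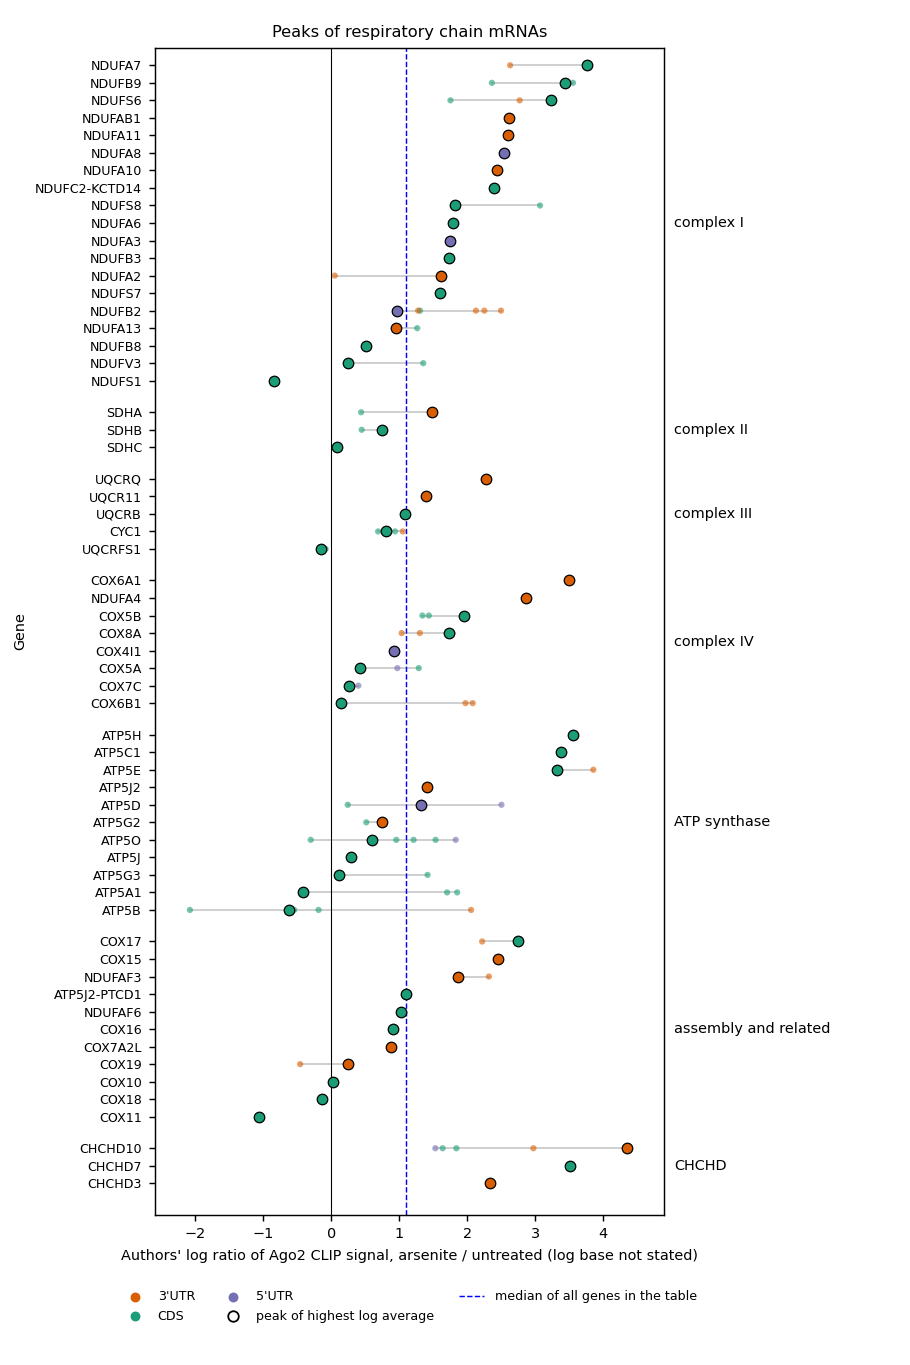
Log ratio (arsenite over untreated, log base not stated) of every peak in the 60 respiratory chain genes, by complex or class. Outlined points are the peak with the highest log average in each gene, small points its other peaks, colours the transcript region, and the dashed line the median of all genes at 1.10. Complex I genes lie mostly to the right of the dashed line, whereas ATP synthase genes are spread from -0.62 in ATP5B to 3.55 in ATP5H.

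Complex I, the NADH dehydrogenase that starts the chain, had the largest number of genes. Of 37 subunits listed for it 18 had a peak under their own symbol and 1 under a readthrough name, and the others had no peak. Of its 19 genes 18 (94.7%) had a log ratio above 0 and 14 (73.7%) above 1, beside 79.9% and 53.1% of all genes. The median was 1.79 (quartiles 1.28 and 2.58). NDUFA7, an accessory subunit, was the highest with 3.77 at a coding sequence (CDS) peak (hg19, chromosome 19, 8381446 to 8381491, minus strand) and 2.63 at its 3'UTR peak. NDUFB9, a small accessory subunit of the membrane arm, had 3.56, 3.44 and 2.36 at 3 CDS peaks, the first 2 of which overlap. NDUFS6, a zinc-binding subunit, had 3.23 and 1.75 in its CDS and 2.77 in its 3'UTR. All peaks of these 3 genes thus had log ratios well above the median of all peaks.

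Other complex I genes with a value above 2 had 1 peak each. NDUFAB1, the mitochondrial acyl carrier protein, had 2.61, NDUFA11 2.61 and NDUFA10 2.44, all 3 in the 3'UTR. NDUFA8 had 2.54 in the 5'UTR, and the readthrough gene NDUFC2-KCTD14, which joins the subunit gene NDUFC2 to its neighbour, had 2.39 in the CDS. The readthrough name is the table's, and whether the reads come from NDUFC2 transcripts alone cannot be told. Of the iron-sulfur core subunits, NDUFS8 had 1.82 and 3.07 at 2 CDS peaks and NDUFS7 had 1.60, whereas NDUFS1, the largest core subunit, had -0.84 at its single peak. NDUFS1 was the one complex I gene not above 0, and its log average of -6.64 was the lowest of all 100 genes. NDUFB2 carried 6 peaks, all above 0, which ran from 0.96 in the 5'UTR to 2.50 at the most 3' peak of its 3'UTR.

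Complexes II and III, which pass electrons from succinate and from ubiquinol, had few genes and lower values. Of 4 genes listed for complex II 1 had no peak, and of 11 for complex III and cytochrome c 6 had none. SDHA, the flavoprotein of complex II, had 1.48 in its 3'UTR and 0.44 in its CDS. SDHB, the iron-sulfur subunit, had 0.74, 0.77 and 0.45 at 3 CDS peaks, and the membrane anchor SDHC had 0.08 at its only peak. All 6 complex II peaks were above 0, beside 70.3% of all peaks, with a gene median of 0.74. Of the 5 complex III genes 4 were above 0, beside 79.9% of all genes, and the class median was 1.08. UQCRQ, a small subunit, was the highest with 2.28, while UQCRFS1, the Rieske iron-sulfur protein, had -0.15 and -0.08 at 2 overlapping CDS peaks. CYC1, the cytochrome c1 gene, had 4 peaks within a narrow range of 0.69 to 1.05.

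Of 17 complex IV subunit genes listed 8 had a peak. These 8 were all above 0, beside 79.9% of all genes, with a median of 1.33, but they split widely. COX6A1, a small regulatory subunit, had 3.50 at its 3'UTR peak (chromosome 12, 120878380 to 120878419, plus strand), and NDUFA4, first assigned to complex I but found with complex IV, had 2.86. COX5B had 1.95 and COX8A 1.73, and the 4 peaks of COX8A ran from 1.03 to 1.78. COX4I1, COX5A, COX7C and COX6B1 had 0.93, 0.42, 0.26 and 0.14. The value of COX6B1, a subunit facing the intermembrane space, is that of a short CDS peak, and its pair of overlapping 3'UTR peaks had 2.08 and 1.97.

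ATP synthase had the largest distance between quartiles of any complex. Of 15 subunit genes listed 11 had a peak. Of these 11 genes 9 (81.8%) were above 0 and 5 (45.5%) above 1, beside 79.9% and 53.1% of all genes. The median was 0.74, and the quartiles lay at 0.20 and 2.36. The central stalk subunits ATP5C1 (gamma) and ATP5E (epsilon) had 3.39 and 3.32, and ATP5H, subunit d of the peripheral stalk, had 3.55 at its single CDS peak (chromosome 17, 73036186 to 73036221, minus strand). ATP5E also had 3.86 in its 3'UTR. The head subunits stood at the other end. ATP5B, the catalytic beta subunit, had -0.62, and ATP5A1, the alpha subunit, had -0.42. The class value depended on the peak chosen: with the median of each gene's peaks the median was 1.31, beside 0.91 over all genes on that basis, and 10 of 11 genes were above 0. In ATP5A1 the value is 1 of 3 CDS peaks, and the other 2 had 1.70 and 1.85, so the gene's median over peaks was 1.70. In ATP5B all 4 CDS peaks were below 0.

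The 11 assembly factors and related genes had a median of 0.90, with 9 (81.8%) above 0 and 5 (45.5%) above 1, beside 79.9% and 53.1% of all genes. The copper chaperone COX17 was the highest with 2.74 in its CDS and 2.22 in its 3'UTR, and COX15, which acts in heme A synthesis, had 2.45. COX10, the heme O synthase, had 0.03, and COX18, which helps to insert a core subunit, -0.13. COX11, which delivers copper to complex IV, was the lowest of the 60 with -1.07 at each of 2 overlapping CDS peaks. ATP5J2-PTCD1 is a second readthrough name, and its peak, with 1.10, lies 33191 nucleotides from that of ATP5J2, with 1.40. Of 10 CHCHD genes listed 7 had no peak. The other 3 were all above 1, beside 53.1% of all genes. CHCHD10, a small protein of the cristae, had 4.36, and CHCHD3, a subunit of the MICOS complex that shapes cristae junctions, had 2.33. CHCHD7 had 3.51 at 1 peak. The median of the 3 was 3.51, and 2.33 with the median of each gene's peaks. Without the assembly factors, related genes and CHCHD genes, the 46 structural genes had a median of 1.44 and 42 (91.3%) were above 0.

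For mitochondrial ribosomal protein mRNAs the share of log ratios above 0 was near that of the whole table, while values above 1 were more frequent than over all genes. Of the 40 genes 35, or 87.5%, had a log ratio above 0, beside 79.9% of all genes, and 30 above 1, beside 53.1%. The median was 1.49, and the quartiles of 1.00 and 1.98 lay closer together than those of the respiratory chain. Of the 40 genes 2, MRPL12 and MRPS25, lay below -1, where 4.52% of all genes did. Over the 82 peaks 63, or 76.8%, were above 0, beside 70.3% of all peaks, and the median was 1.18 beside 0.65. The values per gene ran from -1.29 in MRPL12 to 3.29 in MRPS6.

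**Figure D2:**
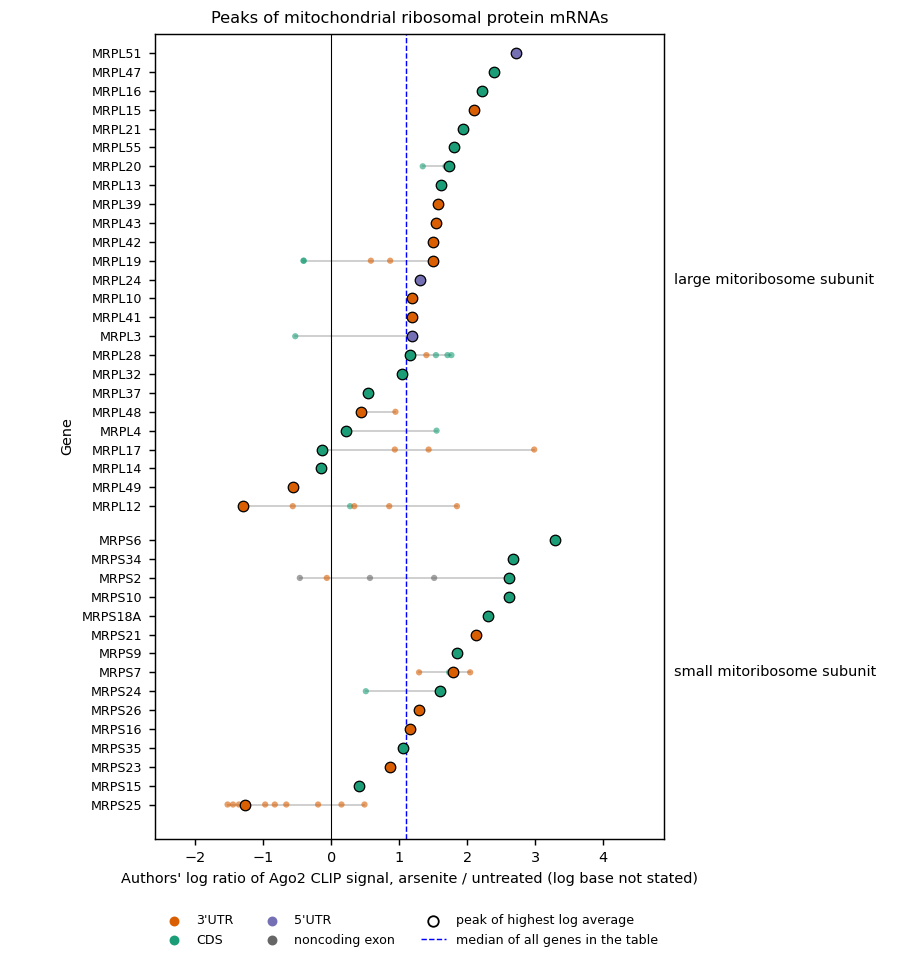
Log ratio (arsenite over untreated, log base not stated) of every peak in the 40 mitochondrial ribosomal protein genes, drawn as for the respiratory chain, with the large subunit above the small one. Most outlined points lie right of the dashed median of all genes at 1.10, and the 11 peaks of MRPS25 lie between -1.53 and 0.49.

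The 15 small subunit genes had a median of 1.80, with 14 (93.3%) above 0 and 12 (80%) above 1, beside 79.9% and 53.1% of all genes. With the median of each gene's peaks the class median was 1.29, beside 0.91 over all genes on that basis. MRPS6 had 3.29 (chromosome 21, 35497672 to 35497732, plus strand), MRPS34 2.67 and MRPS10 2.61, each at a single CDS peak. MRPS2 had 2.62 in its CDS, but its other peaks had 1.51, 0.57, -0.07 and -0.46, and 3 of those 4 were assigned to exons of a noncoding transcript. MRPS18A and MRPS21 had 2.30 and 2.12. MRPS7, with 4 peaks, kept within 1.29 and 2.04. The lowest was MRPS25, with -1.27.

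The 25 large subunit genes had a median of 1.31, with 21 (84%) above 0 and 18 (72%) above 1, beside 79.9% and 53.1% of all genes. MRPL51 had 2.72 in its 5'UTR, MRPL47 2.39 in its CDS, MRPL16 2.22 and MRPL15 2.10. All 6 peaks of MRPL28 lay between 1.16 and 1.77, and all 3 of MRPL20 between 1.34 and 1.73. MRPL41, with the highest log average of the set at -1.04, had 1.19. At the low end, MRPL49 had -0.56 and MRPL14 -0.15, each at 1 peak, and MRPL17 had -0.14 at its CDS peak. MRPL12, which sits in the flexible stalk of the ribosome, had -1.29 at its peak of highest average (chromosome 17, 79674474 to 79674536, plus strand).

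The medians by region differed between the sets. Respiratory chain genes whose value came from a 3'UTR peak were all above 0 (18 of 18), beside 85.9% of the 3323 such genes in the table, and had a median of 2.07 beside 1.32. Those whose value came from the CDS were above 0 in 31 of 37, beside 77.8% of 1896 genes, and had a median of 0.90 beside 0.99. All 6 respiratory chain genes not above 0 had their value from a CDS peak. Mitochondrial ribosomal protein genes had 1.24 at 3'UTR peaks, with 13 of 16 (81.3%) above 0 beside the same 85.9%, and 1.73 at CDS peaks, with 19 of 21 (90.5%) above 0 beside 77.8%. These medians are over different genes. Within a gene that had peaks in both regions, the 3'UTR was higher than the CDS in 10 of 14 respiratory chain genes, with a median difference of 0.26, and in 4 of 6 mitochondrial ribosomal protein genes, with 0.06, beside 60.2% of all 1862 such genes, with 0.26. The difference between the sets was not tested.

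**Figure D3:**
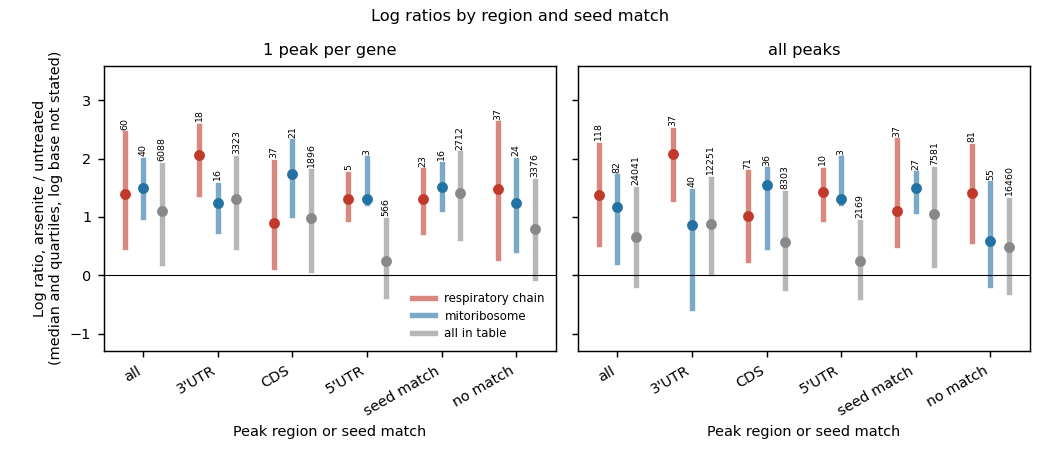
Median and quartiles of the log ratio (arsenite over untreated, log base not stated) of respiratory chain, mitochondrial ribosomal protein and all genes, by peak region and seed match, for 1 peak per gene (left) and for all peaks (right). Small numbers above the bars are numbers of genes or peaks. For 1 peak per gene the respiratory chain median is 2.07 in 3'UTRs and 0.90 in the CDS, and the mitochondrial ribosomal protein medians are 1.24 and 1.73.

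These mRNAs carried relatively many CDS peaks. CDS peaks made up 60.2% of the peaks of the respiratory chain and 43.9% of those of mitochondrial ribosomal protein genes, beside 34.5% of all peaks, and 3'UTR peaks 31.4% and 48.8%, beside 51.0%. The all-peak values also differed by region. Respiratory chain 3'UTR peaks were above 0 in 36 of 37, with a median of 2.08, and CDS peaks in 59 of 71, with 1.02. Mitochondrial ribosomal 3'UTR peaks were above 0 in 27 of 40, with a median of 0.86, and CDS peaks in 31 of 36, with 1.54. Of those 40 3'UTR peaks 11 were in MRPS25 alone, as were 9 of the 13 not above 0. In the table as a whole 76.2% of 3'UTR peaks were above 0, with a median of 0.88, and 68.4% of CDS peaks, with 0.58. The 10 respiratory chain peaks in 5'UTRs were all above 0, the lowest being 0.40 in COX7C, and so were the 3 mitochondrial ribosomal ones, up to 2.72 in MRPL51, where 60.8% of all 5'UTR peaks were above 0.

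Most respiratory chain genes with several peaks had all of them above 0. Of 30 such genes 24 did, 2 (COX11 and UQCRFS1, each with only a pair of overlapping peaks) had none above 0, and 4 were mixed. Of 13 mitochondrial ribosomal protein genes with at least 2 peaks 7 had all above 0, and 6 were mixed. Of the 3749 genes with at least 2 peaks in the whole table, 44.3% had all of them above 0 and 4.91% had none. Respiratory chain genes had 1.97 peaks per gene and mitochondrial ribosomal protein genes 2.05, beside 3.95 over all genes. The median distance between the highest and the lowest peak of a gene was 0.95 in the respiratory chain and 1.33 in the mitochondrial ribosome, beside 1.77 over the 3749 genes. Both the share with all peaks above 0 and this distance depend on how many peaks a gene has. At least 3 peaks were carried by 16 of the 30 respiratory chain and 8 of the 13 mitochondrial ribosomal genes, beside 2584 of the 3749. Those 16 genes had 60 peaks and those 8 had 45, beside 19372 in the 2584. Genes were not matched by number of peaks.

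**Figure D4:**
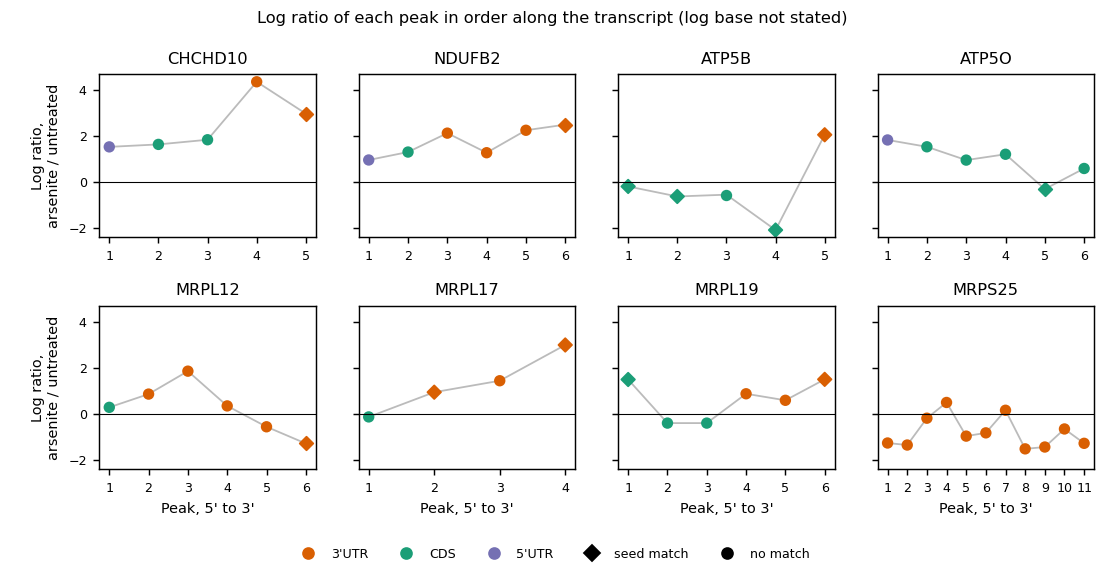
Log ratio (arsenite over untreated, log base not stated) of each peak, numbered from the 5' to the 3' end of the transcript, in 8 genes with at least 4 peaks. Colours give the region and diamonds a seed match. CHCHD10, ATP5B and MRPL17 have their highest value in the 3'UTR, at 4.36, 2.06 and 2.99, while MRPL12 reaches -1.29 at its most 3' peak and MRPS25 is below 0 at 9 of 11 peaks.

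CHCHD10 had 1.53 in the 5'UTR, 1.64 and 1.84 in the CDS, and then 4.36 and 2.97 at a pair of overlapping 3'UTR peaks (chromosome 22, 24108062 to 24108128 and 24108033 to 24108067, minus strand). Only the peak with 2.97 matched a listed seed, that of the miR-25/92 family shown above by miR-92a-3p. ATP5B changed sign within a short distance. All 5 of its peaks lay in the lowest quartile of log averages over all peaks, from -6.80 to -6.29. Its CDS peaks had -0.19, -0.62, -0.55 and -2.08 from 5' to 3', and the 3'UTR peak that follows had 2.06 (chromosome 12, 57032028 to 57032108, minus strand). The peak with -2.08 matched the miR-21-5p seed and the peak with 2.06 those of miR-101-3p and miR-185-5p. ATP5O, the OSCP subunit of the peripheral stalk, ran from 1.83 in the 5'UTR to 0.59 at its last CDS peak, with -0.30 at the fifth of its 6 peaks. MRPL17 went the other way, with -0.14 in the CDS and then 0.93, 1.43 and 2.99 along its 3'UTR, where the peak with 2.99 matched the miR-19 and miR-340-5p seeds.

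MRPL12 had its maximum in the middle of the 3'UTR. From 5' to 3' its 6 peaks had 0.28, 0.85, 1.85, 0.34, -0.57 and -1.29, and only the last matched a seed, that of miR-181a-5p. MRPL19, a large subunit protein, had 1.49 at its first CDS peak and at its last 3'UTR peak, which match the miR-17 and miR-19 seeds, and between -0.41 and 0.87 at the 4 peaks between, none of which matched a seed. The pair of MRPL19 peaks with -0.41 overlap and carry identical values.

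MRPS25, a small subunit protein, carried the most peaks of the set and was mostly below 0. All of its 11 peaks lay in the 3'UTR, none matched a listed seed, and 9 were below 0, where 29.7% of all peaks were, with a median of -0.97. Of the 19 peaks below 0 in the whole mitochondrial ribosomal set 9 were in MRPS25, and so were 5 of the 6 peaks below -1. Those 6 were among 82 peaks of the set, where 7.43% of all peaks in the table lay below -1. Of the 529 genes in the table with at least 10 peaks, 7, MRPS25 among them, had a median as low. Without MRPS25, 61 of the other 71 peaks of the set were above 0, with a median of 1.31.

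Genes with a seed match had the higher median in the mitochondrial ribosome, as over the whole table. In the respiratory chain they had the lower one, but the order there differed by region and between genes and peaks. A seed of any of the 50 families listed by the authors was matched at 31.4% of respiratory chain and 32.9% of mitochondrial ribosomal peaks, beside 31.5% of all peaks. In the respiratory chain the 23 genes with a match at the peak of highest average had a median of 1.31 and the 37 without one 1.48, whereas over all genes the medians were 1.42 and 0.79. In mitochondrial ribosomal protein genes they were 1.52 with and 1.24 without a match. Respiratory chain genes with a CDS value had 1.09 with a match (16 genes) and 0.59 without (21 genes). Those with a 3'UTR value had 1.50 with a match (6 genes) and 2.30 without (12 genes). Over all respiratory chain peaks the order was the other way, with 0.83 and 1.26 in the CDS and 2.32 and 2.03 in the 3'UTR. Among genes that had both kinds of peak, the matched peaks were higher in 7 of 15 respiratory chain genes, with a median difference of -0.06, and in 4 of 8 mitochondrial ribosomal protein genes, with 0.04. Over all 2582 such genes matched peaks were higher in 63.5%, with a median difference of 0.33. These differences were not tested.

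The families most often matched were those of miR-16-5p, miR-103a-3p and miR-29b-3p. The miR-15/16 seed was matched at 5 respiratory chain peaks, with a median of 1.10, and at 4 mitochondrial ribosomal peaks, with 1.75. All 9 were above 0, beside 79.7% of the 994 peaks matched in the table, whose median was 0.92. MRPS10 had 2.61, NDUFS8 1.82, MRPL28 1.77, COX8A and MRPL20 1.73 and MRPL13 1.62, all in the CDS, and COX5A was the lowest with 0.42. The same COX5A, MRPL28 and NDUFS8 peaks also matched the miR-103/107 seed, which shares 6 bases with it, and 4 respiratory chain peaks with that seed had a median of 1.20 and 2 mitochondrial ribosomal ones 1.66, beside 1.23 in the table. The miR-29 seed was matched at 6 peaks, with 3.39 in ATP5C1, 2.77 in NDUFS6 and 2.39 in MRPL47 but 0.51 in ATP5G2 and -0.62 in ATP5B.

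Other families were matched at 1 to 4 peaks each. The miR-17 seed was matched in COX7A2L, with 0.88, and in MRPL17, MRPL19 and MRPL43, with a median of 1.49, beside 1.67 over its 716 peaks in the table. The miR-25/92 seed was matched at 3 peaks, with 2.97 in CHCHD10, 0.74 in SDHB and 0.12 in ATP5G3, beside a median of 1.72 in the table. The seed of miR-301a-3p was matched at 4 peaks, from 0.08 in SDHC to 3.77 in NDUFA7. The miR-30 and let-7 seeds were matched once each, with 1.04 in MRPL32 and 1.85 in MRPS9. The miR-27 seed was matched at 4 peaks, all between 1.03 and 1.79.

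In the authors' deposited table the log2 fold changes of the miRNAs printed above lay between -0.13 and 0.30, and none passed the authors' DESeq test. Some miRNAs of families matched at 1 or 2 peaks lay below this range. Among them were miR-324-3p, miR-18a-3p, miR-193b-3p and miR-185-5p, with -0.60, -0.57, -0.34 and -0.30 in the authors' deposited table. In the other direction miR-362-5p had 0.29 in the authors' deposited table, and none of these passed the test either. The miR-324-3p seed was matched in SDHA, with a log ratio of 0.44, and in MRPS2, with -0.46. The miR-18a-3p seed was matched in MRPS2, with 1.51. In the authors' deposited table miR-16-5p had means of 1016984 with arsenite and 1001623 without, a log2 fold change of 0.02 (DESeq, p = 0.863, adjusted p = 1). In the authors' deposited table miR-103a-3p had 26521 with arsenite and 25952 without, a log2 fold change of 0.03, and miR-29b-3p 18839 with arsenite and 19685 without, a log2 fold change of -0.06. In the authors' deposited table the log2 fold changes of miR-17-5p, miR-19b-3p, miR-27a-3p and miR-181a-5p were -0.02, -0.13, -0.07 and -0.04. The largest among the 9 printed miRNAs was that of miR-301a-3p, at 41800 with arsenite and 33861 without, a log2 fold change of 0.30 (DESeq, p = 0.16, adjusted p = 1) in the authors' deposited table. By the authors' DESeq test 0 of 1213 entries (0.0%) passed an adjusted p of 0.05, and 24 had an unadjusted p under 0.05 in the authors' deposited table.

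Genes were also grouped by the level of their Ago2 signal. All 19 respiratory chain genes in the top quartile of log averages over the table were above 0, with a median of 1.74, where 75.2% of all genes in that quartile were above 0, with a median of 0.90. In the lowest quartile 10 of 13 were above 0, with a median of 0.90, beside 81.9% and 1.14 over all genes there. The second quartile from below had a median of 1.44 and the one above it 0.84, so the medians showed no order by level. The respiratory chain shares above 0 rose with level, at 76.9%, 83.3%, 93.8% and 100%. Over all genes they were 81.9%, 83.1%, 79.6% and 75.2%. By quartiles of peaks, 3 of 8 respiratory chain peaks were above 0 in the lowest and 52 of 52 in the top one. Of all peaks there, 68.9% and 67.4% were above 0. The 8 lowest peaks came from 4 genes. All 5 peaks of ATP5B were among them, and 1 of these 5 was above 0. The differences were not tested. Of the mitochondrial ribosomal genes 10 of 12 were above 0 in the top quartile and 6 of 6 in the lowest. With 1 peak per gene the log averages of the respiratory chain and the mitochondrial ribosome had medians of -4.11 and -4.04, beside -4.38 for all genes. Over all peaks they were -4.24 and -4.21, beside -5.18, and 52 of 118 respiratory chain and 38 of 82 mitochondrial ribosomal peaks lay in the top quartile of peaks. The peaks had median lengths of 52.5 and 47.5 nucleotides with 1 peak per gene, beside 48. CHCHD10, ATP5D, ATP5E, COX8A, NDUFS8 and NDUFS7 were the 6 respiratory chain genes with a log average above -2, and their log ratios ran from 1.31 to 4.36.

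Other genes of the mitochondrion and of energy metabolism were set beside these mRNAs. Genes of the citrate cycle and pyruvate dehydrogenase had a median of 1.74, with 9 of 10 above 0, among them OGDH with 2.97 and PDHB with 2.57. DLST, the E2 subunit of the oxoglutarate dehydrogenase complex, had -1.67. Cytosolic ribosomal protein mRNAs had a median of 1.42 with 52 of 54 above 0. Mitochondrial protein import genes had a lower median, 0.83, with 15 of 17 above 0, among them TOMM5 with 2.84 and TOMM40 with -0.31. Factors that act with the mitochondrial ribosome had 0.87, with 6 of 9 above 0, from -1.06 in ERAL1, which acts in small subunit assembly, to 2.35 in MTFMT, the formyltransferase of the initiator tRNA. With the median of each gene's peaks the list had a median of 0.10. Genes of mitochondrial DNA and RNA had 1.28 with 7 of 9 above 0, and glycolytic genes 0.73 with 9 of 11 above 0. The 5 nuclear regulators of mitochondrial genes with a peak were all above 0 at the peak of highest average, with a median of 1.35. With the median of each gene's peaks 4 of them were above 0 and the median was 0.77, since PPRC1, with 17 peaks, then had 0.08 and ESRRA -0.18. Over all genes 79.9% were above 0, beside 96.3% of the cytosolic ribosomal protein genes and 66.7% of the factors that act with the mitochondrial ribosome. Differences between lists were not tested.

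**Figure D5:**
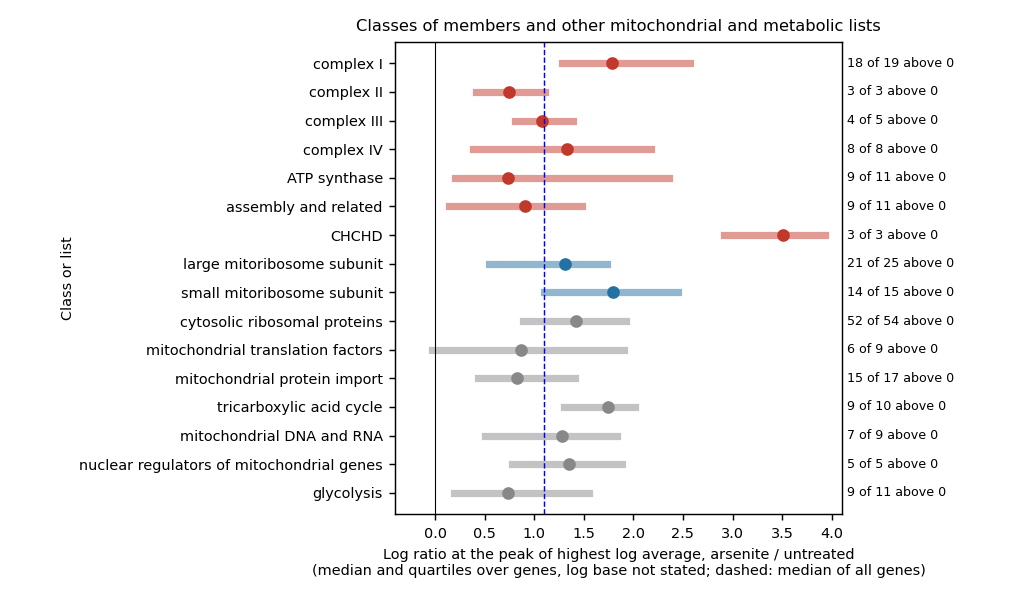
Median (point) and quartiles (bar) over genes of the log ratio at the peak with the highest log average (arsenite over untreated, log base not stated), for the classes of respiratory chain genes, both subunits of the mitochondrial ribosome, and other lists, with the number of genes above 0. The dashed line is the median of all genes, 1.10. Complex I, the small subunit and the citrate cycle have medians of 1.79, 1.80 and 1.74, and protein import, translation factors and glycolysis lie at 0.83, 0.87 and 0.73. With the median of each gene's peaks these medians are, in the same order, 1.79, 1.29, 1.46, 0.99, 0.10 and 0.64, beside 0.91 over all genes.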

How the data were processed

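The 2 deposited tables were used, both made by the authors. Per the file headers, the peak table gives for each Ago2 CLIP peak its position, transcript, region, matches to 7-nucleotide seeds and a log average and log ratio, already normalized by the authors. The miRNA table, with miRBase 18 names, holds the authors' signal values (mean counts divided by size factors), the ratio (fold) of the means, its log2 value, and p-values from DESeq, as deposited. Bowtie 0.12.8, TopHat, DESeq and build hg19 are named in the submitters' processing notes without a role. Peak caller, filters, strand use and the treatment of reads that match several places were not given in any source used here. 0 columns hold values of single samples, so the replicate tests could not be run, and sequencing depth is unknown.

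Members were found by symbol, and roles and classes were assigned by hand from general knowledge. The members and lists were chosen with earlier results of these data known. Medians, quartiles and counts were computed with Python 3.11.15, pandas 2.3.3 and NumPy 2.4.6 and tested on simulated data. Peak length is end minus start plus 1. Coordinates are as deposited, with the origin of their numbering (0 or 1) unstated. The quartiles of log averages are those of all 6088 genes or, for peaks, of all 24041 peaks. Genes named were, per set, the highest and lowest values (3 each for the respiratory chain, 5 each for the ribosome), the highest and lowest of each class, the 3 with most peaks, and genes with a seed match in the highest or lowest 10%. Other members and list genes were named after their values were seen.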

Additional observations from a re-analysis of the deposited data

How the results depend on the processing

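The median log ratio of each set stayed above 0 under every alternative, as did that of the whole table. Where 0 lies was set by the unstated normalization. The median log ratio of respiratory chain genes was 1.39 with 1 peak per gene, 1.42 when each gene was given the median of its peaks, 1.37 over all peaks and 1.54 in the upper 75% of log averages. With CDS peaks only it was 0.96, beside 0.83 over all genes with such peaks. With 3'UTR peaks only it moved to 2.13, and the share above 0 to 100% (27 of 27 genes), beside 1.25 and 84.2% over all genes with such peaks. The cause was not tested. Restricted to 3'UTR peaks, the mitochondrial ribosomal set lay near the table, its median being 1.29 beside 1.25. A positive log ratio was found for 15 of its 19 genes (78.9%). The gap between this share and the 84.2% of the table rests on few genes and was not tested. For mitochondrial ribosomal protein genes the median ranged from 1.18 over all peaks to 1.62 with CDS peaks only, and the share above 0 from 76.8% over all peaks to 92.6% in genes with 1 peak, an alternative chosen after seeing the data, as was leaving out MRPS25 (85.9% of peaks) and the use of gene medians for single classes and lists. No paired analysis was possible because the deposited columns carry no values of single replicates, and for the same reason no replicate could be left out.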

Other observations

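Many of these genes have pseudogene copies elsewhere in the genome. In the RefSeq annotation (GRCh38.p14) 33 of the 60 respiratory chain genes and 21 of the 40 mitochondrial ribosomal protein genes have at least 1 pseudogene named after them, with 9 for MRPS21, 8 for COX5B and 7 for ATP5A1, ATP5J2 and COX6B1. Respiratory chain genes with such a copy had a median log ratio of 1.08, and those with none 1.60. For mitochondrial ribosomal protein genes the medians were 1.19 and 1.54. The part of reads from copies in these values was not tested.

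Of the 200 peaks, 49 in 21 genes overlap another peak of the same gene, and 4 of them, in NDUFB8 and MRPL19, carry values identical to those of the peak they overlap, so such peaks are not separate measurements. 0 peaks overlap a peak of another gene on the same strand or any peak on the other strand.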
